A study of Rattus norvegicus with 30 samples.

Results

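The transition from 12 to 72 h of adipogenesis (AD) was followed in 6 of the 30 samples of the series, 3 collected after 12 h and 3 collected after 72 h (labelled 3d) of adipogenic induction, and the samples were taken by these labels. Both groups were rat bone marrow mesenchymal stem cells (BMSCs) of the Sprague Dawley strain at passage 2, kept in a commercial adipogenic differentiation medium. The rest of the series holds undifferentiated cells (0 h), adipogenic cells of 3 h, and osteogenic (OS) and chondrogenic (CH) cells of the 3 time points, 3 samples to a group. The study followed how gene expression, above all that of transcription factors (TFs), shifted while the fate of these cells was set. Cells had been isolated from the femur and tibia of 3 female rats of 3 weeks of age. Each sample pooled 3 cultures. No source used here ties a sample to an animal, so the p-values measure only the spread between samples of a group, which may be technical. This spread was taken over all 10 groups of the series. No uninduced cells of 12 or 72 h were used here, so time in culture and time in the medium cannot be told apart.

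Adipogenesis turns a fibroblast-like stromal cell into a cell that stores triglyceride. Adipogenic cocktails usually hold a glucocorticoid, insulin and an agent that raises cyclic AMP. Early factors of the C/EBP family act before PPARγ and C/EBPα, the regulators that switch on genes of the lipid droplet, of fatty acid uptake and of lipid synthesis. In several preadipocyte models the cells divide again shortly after induction and leave the cell cycle before they fill with lipid. Wnt signals and a stiff, contractile cytoskeleton are known to hold this program back.

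Values are read counts scaled to the depth of each sample (CPM), with no correction for gene length. The totals were 5405033 to 6836525 reads at 12 h and 5616285 to 6313113 reads at 72 h. The listed genes held 54.2 to 64.6% of them at 12 h but 38.9 to 49.0% at 72 h. A signal of 3 reads, at most 0.555 CPM at 12 h and 0.534 CPM at 72 h, was taken as the floor of detection, and it covers counting error only. In both groups 1 sample lay apart from the rest, replicate 3 at 72 h and replicate 1 at 12 h. Over genes with at least 100 reads in a pair of samples, the mean chi-square per gene was 132 and 142 between replicate 3 of 72 h and its group, against 9.90 between replicates 1 and 2. It was 73.6 and 72.6 between replicate 1 of 12 h and its group, against 4.24 between replicates 2 and 3. Counting error alone gives about 1, and every pair lay above it. A few genes can raise such a mean, so whether samples were technical repeats cannot be told. The 24 pairs of the other 8 groups ranged from 2.91 to 132.

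Of 4363 genes tested with limma on log2(CPM + 1), 698 differed between 72 and 12 h (16.0%). A difference was called where the log2 fold change reached 1 up or down with an adjusted p below 0.05 (Benjamini-Hochberg). They comprised 226 that rose (5.18%) and 472 that fell (10.8%). The groups did not overlap for 192 of the former and 455 of the latter, whereas 10.8% of all tested genes lay wholly higher and 32.4% wholly lower at 72 h. The excess of falls depended on how samples were scaled. The median log2 fold change over all tested genes was -0.18 in CPM, 0.08 after median-ratio scaling, 0.01 after quantile normalization and 0.02 after setting every sample to an equal sum of listed reads. The genes that rose and fell then numbered 431 and 253, 307 and 292, and 393 and 288. No gene called in CPM was called the other way under these 3 scalings. In all, 220 genes rose (5.04%) and 249 fell (5.71%) under all 4 scalings, and 194 and 229 of these were also called without replicate 3 of 72 h and replicate 1 of 12 h. Without these 2 samples the counts in CPM were 287 and 370. With the spread taken from the 6 compared samples alone, 137 genes rose and 391 fell.

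Secreted proteins, enzymes and membrane proteins were among the 12 largest rises. Frzb, which encodes a secreted Wnt antagonist, stood at 3.36, 4.05 and 3.52 CPM at 12 h and 673, 623 and 118 CPM at 72 h. Its 72 h samples all lay far above those of 12 h, with replicate 3 the lowest of them, and the log2 fold change was 6.31 (SE 0.40) with an adjusted p of 7.5e-14. Akr1cl, of the aldo-keto reductase family, rose from 4.68, 6.63 and 2.78 CPM to 259, 268 and 378 CPM. Replicate 3 was here the highest of 72 h, and the log2 fold change was 5.77 (SE 0.23). Aox1, an aldehyde oxidase, went from 251, 443 and 427 CPM to 4010, 4085 and 6352 CPM and rose by 3.70 (log2). Ace, the angiotensin-converting enzyme, was measured at 2.49, 0.921 and 0.370 CPM at 12 h and 52.0, 70.6 and 18.5 CPM at 72 h. The groups did not overlap, and Ace rose by 4.33. The membrane protein gene Vat1l rose by 4.69 and Ntrk2, which encodes the neurotrophin receptor TrkB, by 3.67. For both, replicate 3 was the lowest sample of 72 h and still above all of 12 h, at 14.1 CPM for Vat1l and 4.75 CPM for Ntrk2. In osteogenesis Akr1cl rose by 5.17, Ace by 5.02 and Aox1 by 4.99. By the test of the difference Aox1 rose less in adipogenesis, and Akr1cl and Ace were not called different. Frzb, Vat1l and Ntrk2 rose more than in osteogenesis. The change of each of these genes was higher than in chondrogenesis by the same test.

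**Figure D1:**
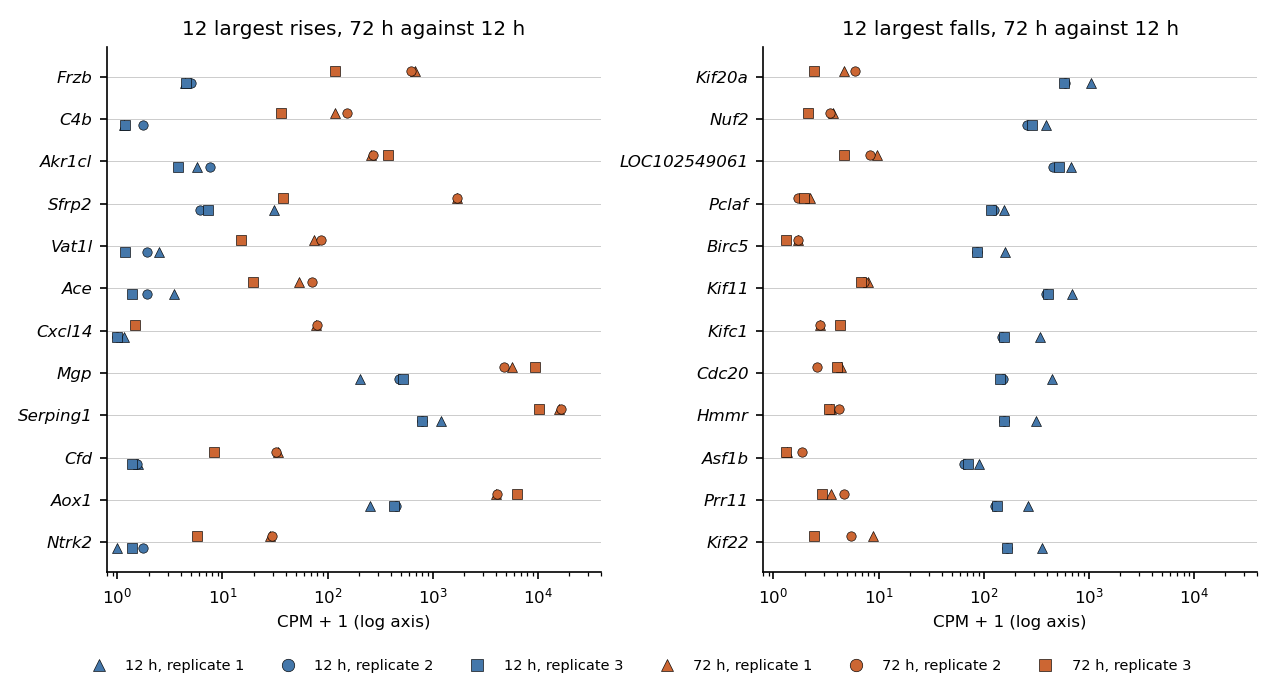
Values of the 12 genes with the largest rises and the 12 with the largest falls among called genes whose groups do not overlap. The x axis is CPM + 1 on a log scale, colours mark the time point and symbols the replicate. Among the rises, 72 h replicate 3 lies below replicates 1 and 2 for most genes, furthest for Sfrp2 and Cxcl14, and among the falls 12 h replicate 1 lies above the other 12 h samples.

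The largest falls belonged to cell division. All 12 leading genes lost nearly all of their signal, and all but the uncharacterised LOC102549061 have known roles in mitosis, chromatin assembly or DNA replication or have been tied to the cell cycle. Kif20a, a kinesin of the central spindle, stood at 1057, 598 and 587 CPM at 12 h and 3.74, 4.97 and 1.43 CPM at 72 h. Every 72 h sample lay below every 12 h sample, with a log2 fold change of -7.46 (SE 0.20) and an adjusted p of 2.5e-22. Nuf2, a kinetochore subunit, fell from 395, 259 and 289 CPM to 2.67, 2.48 and 1.11 CPM. Birc5, which encodes survivin of the chromosomal passenger complex, fell from 158, 84.7 and 85.1 CPM to 0.712, 0.709 and 0.317 CPM. In each of these genes replicate 1 was the highest sample of 12 h, and leaving it out together with replicate 3 of 72 h gave log2 fold changes of -6.80, -6.27 and -5.65. The spindle kinesins Kif11, Kifc1 and Kif22 had log2 fold changes of -6.04, -5.97 and -5.47. The values were -5.90 for Cdc20, the activator of the anaphase-promoting complex, -5.76 for the hyaluronan-binding spindle gene Hmmr, -5.51 for Prr11, -6.08 for the PCNA-associated factor Pclaf and -5.64 for the histone chaperone Asf1b.

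Most members of the mitosis and cytokinesis list fell. Of 43 members tested, 33 fell and 0 rose, against 10.8% of all genes that fell, and the median log2 fold change was -2.36 (-2.69 with genes under the floor set at their bounds) against -0.18 (-0.15) over all genes. Of 23 DNA replication and S phase genes tested, 15 fell and 0 rose, with a median of -2.27 (-2.46 with bounds). With the other scalings 30 to 32 mitotic genes and 15 replication genes fell, and without the 2 samples that lay apart 33 and 17 did. In these bulk samples fewer dividing cells and less RNA of these genes per cell cannot be told apart. Topoisomerase Top2a went from 26.8, 20.3 and 17.9 CPM to 0.356, 0.177 and 0 CPM and was at least 40.5-fold lower. The centromeric histone Cenpa, at 44.5, 19.2 and 25.7 CPM at 12 h, was at least 55.7-fold lower. Cyclin A2 (Ccna2) was at least 10.2-fold lower and cyclin F (Ccnf) fell by 5.19. Among replication genes, the helicase subunits Mcm3, Mcm6 and Mcm4 had log2 fold changes of -4.57, -3.54 and -2.48. Mcm3 gave 402, 299 and 282 CPM at 12 h and 17.6, 13.7 and 8.40 CPM at 72 h, with no overlap between the groups. The log2 fold change was -3.30 for the ribonucleotide reductase subunit Rrm1, -2.46 for thymidylate synthase (Tyms), -3.06, -2.71 and -2.20 for the clamp loader subunits Rfc3, Rfc4 and Rfc2, and -2.71 for the licensing factor Cdt1.

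At 12 h these genes had been above the level of undifferentiated cells. Summed over the mitosis list, the level was 890 to 924 CPM at 0 h, 3164 to 3328 CPM at 3 h, 3309, 3370 and 5505 CPM at 12 h and 574 to 616 CPM at 72 h of adipogenesis. At 12 h, 30 of the 43 genes were called higher than at 0 h (8.14% of all genes), and at 72 h 19 were called lower than at 0 h (9.08% of all genes). The replication list summed to 717 to 744 CPM at 0 h, 2715 to 3151 CPM at 12 h and 308 to 415 CPM at 72 h. The level at 72 h thus lay below that at 0 h in every sample of both lists. In osteogenesis the mitosis list summed to 5723 to 5771 CPM at 12 h and 618 to 657 CPM at 72 h, and 38 of its genes fell and 0 rose between these times (13.5% and 9.67% of all genes). In chondrogenesis it summed to 1179 to 1225 CPM at 12 h and 1217 to 1360 CPM at 72 h, with 2 genes higher and 1 lower (7.98% and 5.23% of all genes). The change of 34 mitotic genes was lower in adipogenesis than in chondrogenesis by the test of the difference (13.0% of all genes). Against osteogenesis 5 changes were higher and 2 lower (5.52% and 8.71% of all genes).

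**Figure D2:**
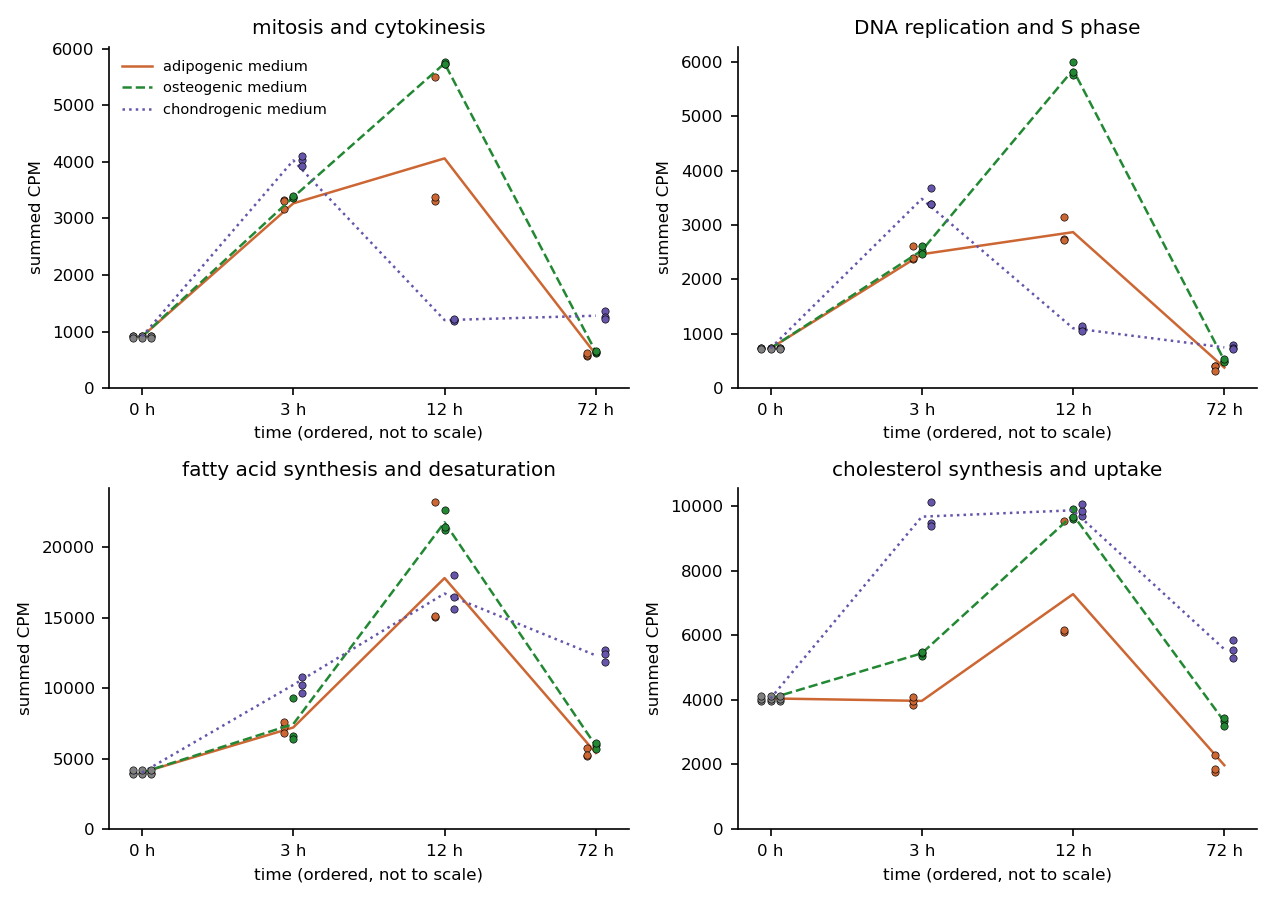
Summed CPM of 4 gene lists at 0, 3, 12 and 72 h in each differentiation medium, with time points in order and not to scale. Points are samples, grey for the 3 shared samples of 0 h (drawn once for each medium), and lines join group means. The adipogenic and osteogenic sums of both cell cycle lists rise to 12 h and fall below the 0 h level at 72 h, and 1 adipogenic sample of 12 h lies above the other 2 in the mitosis, fatty acid and cholesterol lists.

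The promoters of genes that fell together can be set beside these values. RefSeq promoter windows of assembly GRCr8, 250 bases before to 50 after each gene's start, were at hand for 27 of the 33 mitotic and 14 of the 15 replication genes that fell. They were searched on both strands for the cell cycle genes homology region (CHR) as TTTGAA or TTCGAA, for the CCAAT box as CCAAT, and for E2F sites as TTTCGCGC, TTTGGCGC, TTTCCCGC or TTTGCCGC, and matches could overlap. A CHR match lay in 22 of the 27 mitotic windows (81.5%), against 19.7% of all 33469 windows of the table and 14.3% of the windows of tested genes. CCAAT lay in 17 of the 27 (63.0%), against 37.5% of all windows. E2F letters lay in 8 of the 14 replication windows (57.1%), against 2.14% of all windows, 3.59% of those of tested genes and 1 of the 27 mitotic windows. They also lay in 3 of the 5 windows of replication genes that were not called. Mitotic genes that were tested and not called had the CHR letters in 6 of 8 windows (75.0%). The windows of 4 mitotic genes among the largest falls are printed below with their CHR and CCAAT matches in capitals, followed by 2 replication genes with their E2F matches in capitals. A match is only a run of letters and not a measured binding site.
Birc5 (chr10:103571896-103572195, plus strand): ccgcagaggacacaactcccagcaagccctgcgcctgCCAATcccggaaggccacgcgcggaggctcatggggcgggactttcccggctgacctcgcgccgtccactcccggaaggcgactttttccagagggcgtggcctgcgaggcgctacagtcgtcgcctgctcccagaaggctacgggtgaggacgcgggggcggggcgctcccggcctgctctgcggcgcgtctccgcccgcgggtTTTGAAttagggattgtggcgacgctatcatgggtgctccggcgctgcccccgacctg
Cdc20 (chr5:137255750-137256049, minus strand): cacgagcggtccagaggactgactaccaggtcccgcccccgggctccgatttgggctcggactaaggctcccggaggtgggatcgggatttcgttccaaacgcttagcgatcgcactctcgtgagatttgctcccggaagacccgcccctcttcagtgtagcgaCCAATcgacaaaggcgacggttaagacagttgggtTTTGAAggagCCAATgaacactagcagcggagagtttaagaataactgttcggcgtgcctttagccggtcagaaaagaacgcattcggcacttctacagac
Kif22 (chr1:191080829-191081128, minus strand): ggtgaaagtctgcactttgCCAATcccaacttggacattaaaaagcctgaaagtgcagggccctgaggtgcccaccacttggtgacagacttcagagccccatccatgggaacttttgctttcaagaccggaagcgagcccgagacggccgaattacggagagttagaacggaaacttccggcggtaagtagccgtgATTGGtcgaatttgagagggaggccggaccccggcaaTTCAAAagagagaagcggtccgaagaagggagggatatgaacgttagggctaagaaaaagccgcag
Hmmr (chr10:25665166-25665465, minus strand): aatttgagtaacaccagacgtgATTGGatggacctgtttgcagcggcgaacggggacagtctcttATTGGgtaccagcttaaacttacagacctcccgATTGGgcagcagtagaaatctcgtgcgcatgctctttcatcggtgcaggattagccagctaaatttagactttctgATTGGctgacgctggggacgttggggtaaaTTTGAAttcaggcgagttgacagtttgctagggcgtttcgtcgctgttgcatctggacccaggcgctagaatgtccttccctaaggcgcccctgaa
Mcm3 (chr9:30733697-30733996, minus strand): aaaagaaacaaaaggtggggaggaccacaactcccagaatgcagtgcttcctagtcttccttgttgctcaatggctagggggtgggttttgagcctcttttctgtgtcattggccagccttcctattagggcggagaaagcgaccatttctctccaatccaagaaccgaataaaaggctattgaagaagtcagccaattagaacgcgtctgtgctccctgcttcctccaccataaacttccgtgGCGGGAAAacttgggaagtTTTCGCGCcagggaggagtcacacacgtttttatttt
Mcm6 (chr13:42404303-42404602, minus strand): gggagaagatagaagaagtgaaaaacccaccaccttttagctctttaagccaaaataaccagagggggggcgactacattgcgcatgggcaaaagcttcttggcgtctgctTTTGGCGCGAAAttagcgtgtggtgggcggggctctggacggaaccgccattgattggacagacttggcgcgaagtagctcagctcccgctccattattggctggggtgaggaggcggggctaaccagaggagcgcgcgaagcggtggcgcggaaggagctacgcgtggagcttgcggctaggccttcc
In Birc5 the CHR begins 8 bases before the annotated start, in Kif22 16 bases, in Hmmr 46 bases and in Cdc20 51 bases. None of the 8 windows found for the 12 largest rises held the CHR letters, too few windows to tell this from the 14.3% of tested genes. Over all genes that rose, 17 of 164 windows held them (10.4%), and over all that fell 77 of 367 (21.0%).

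Of 10 genes tested for fatty acid synthesis and desaturation 5 fell and 1 rose, against 10.8% and 5.18% of all genes. Fasn, the fatty acid synthase, stood at 4243, 3221 and 3157 CPM at 12 h and 769, 841 and 785 CPM at 72 h. The groups lay far apart, with little spread at 72 h, and Fasn fell by 2.14 (log2, SE 0.15). Scd2, a stearoyl-CoA desaturase, fell from 17835, 11014 and 11168 CPM to 4172, 4652 and 4268 CPM. Replicate 1 was the highest 12 h sample of both genes, and reads of Scd2 may be shared with its close paralogs. The mitochondrial citrate carrier Slc25a1 fell by 2.04, the acetoacetyl-CoA synthetase Aacs by 2.02, and the elongase Elovl6 was at least 6.55-fold lower. These were the 5 members that fell. Acss1, an acetyl-CoA synthetase, was the only member that rose, at least 2.31-fold, a call that was lost under quantile normalization and without the 2 samples that lay apart. The list summed to 15064 to 23250 CPM at 12 h and 5185 to 5755 CPM at 72 h, with 3881 to 4183 CPM at 0 h. Between the same times 6 of the 10 fell and 1 rose in osteogenesis (13.5% and 9.67% of all genes). In chondrogenesis 4 fell and 1 rose (5.23% and 7.98% of all genes). By the test of the difference 1 change was higher and 0 lower than in osteogenesis (5.52% and 8.71% of all genes). Against chondrogenesis 0 were higher and 3 lower (6.26% and 13.0% of all genes).

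Of 18 genes for cholesterol synthesis and uptake, 8 fell and 1 rose, against 10.8% and 5.18% of all genes, with a median of -0.83. Cyp51, the lanosterol demethylase, was measured at 3698, 2177 and 2148 CPM at 12 h and 334, 315 and 456 CPM at 72 h. Every 72 h sample was far below every 12 h sample, and Cyp51 fell by 2.83 with an adjusted p of 2.2e-16. Squalene epoxidase (Sqle) fell by 2.14, the methylsterol oxidase Msmo1 by 2.06, squalene synthase (Fdft1) by 1.72, and the desaturase Sc5d fell by 1.51. Insig1, which retains the SREBP pathway in the endoplasmic reticulum, fell by 1.65. Srebf2, the gene of the sterol-sensing transcription factor SREBP2, stood at 237, 129 and 135 CPM at 12 h and 69.3, 61.4 and 89.0 CPM at 72 h. It fell by 1.14 in CPM and was not called under the other 3 scalings. Abca1, the cholesterol efflux pump, rose from 1.02, 0.552 and 0.370 CPM to 2.14, 4.97 and 4.75 CPM, by 1.55. The changes of 8 members were lower than in chondrogenesis (13.0% of all genes) and those of 2 lower than in osteogenesis (8.71%), where 8 members fell (13.5%). Replicate 1 of 12 h had the highest sum of this list, 9535 CPM against 6100 and 6174 CPM. Without it and replicate 3 of 72 h, 8 sterol genes and 5 fatty acid genes fell.

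Of 19 genes of the adipocyte and of lipid storage tested, 8 rose and 1 fell, against 5.18% and 10.8% of all genes, and the median was 0.56. Against 0 h, 10 of them were higher at 72 h (6.19% of all genes). Over the same interval 5 of the 19 rose and 2 fell in osteogenesis (9.67% and 13.5% of all genes). In chondrogenesis 4 rose and 2 fell (7.98% and 5.23% of all genes). By the test of the difference 6 changes were higher and 5 lower than in osteogenesis (5.52% and 8.71% of all genes). Against chondrogenesis 7 were higher and 3 lower (6.26% and 13.0% of all genes). Perilipin 1 (Plin1), which coats the lipid droplet, stood at 0.146, 0.184 and 0.185 CPM at 12 h and 2.14, 1.42 and 3.48 CPM at 72 h. The 12 h samples were all under the floor and the 72 h samples all above it, at least 4.23-fold higher. Gpd1, the glycerol-3-phosphate dehydrogenase that supplies the triglyceride backbone, rose from 0.878, 0.737 and 0.185 CPM to 6.94, 7.27 and 6.18 CPM. G0s2, an inhibitor of adipose triglyceride lipase, was at least 3.16-fold higher, with 0.634 CPM in replicate 3 of 72 h. Cfd, which encodes the adipokine adipsin (complement factor D), was measured at 0.585, 0.552 and 0.370 CPM at 12 h and 32.9, 31.0 and 7.29 CPM at 72 h. Replicate 3 was the lowest sample of 72 h and still above all of 12 h, and Cfd rose by 3.79 (SE 0.32). Rbp4, the retinol-binding protein, rose by 1.70, the apolipoprotein Apoe by 1.34 and the glutamine transporter Slc1a5 by 1.68. Rbp4 overlapped between the groups, since replicate 3 of 72 h had 1.27 CPM.

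Lipoprotein lipase (Lpl), which frees fatty acids for uptake, was the member whose call rested on the samples that lay apart. It stood at 253, 1093 and 1028 CPM at 12 h and 1160, 1387 and 3216 CPM at 72 h, so that replicate 1 was low at 12 h and replicate 3 high at 72 h. The log2 fold change was 1.39 (SE 0.32) over all samples and 0.26 without these 2, where it was not called. In osteogenesis Lpl rose by 3.22, more than in adipogenesis by the test of the difference, and in chondrogenesis it fell by 2.54. Fabp5, a fatty acid binding protein, fell from 132, 69.4 and 73.1 CPM to 11.8, 13.5 and 12.7 CPM, with no overlap. Several defining adipocyte genes were near or under the floor. Pparg reached at most 0.370 CPM at 12 h and 0.950 CPM at 72 h, and Cebpa at most 0.368 CPM and 0.475 CPM. Cidec, Cd36 and Thrsp were listed at 0 in all 6 samples and leptin (Lep) in 5 of them. Adipoq and Fabp4 were not analysed here.

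Of 26 adipogenic regulators tested, 4 rose and 0 fell, against 5.18% and 10.8% of all genes. Over the same interval 7 of the 26 rose in osteogenesis and 6 in chondrogenesis (9.67% and 7.98% of all genes), and 0 fell in either. Klf5, a Krüppel-like factor that acts early in adipocyte differentiation, rose from 15.4, 16.9 and 17.6 CPM to 42.4, 39.0 and 33.7 CPM. The circadian repressor Nr1d1 (Rev-erbα) rose by 1.86, and Snai2, a zinc finger repressor, from 21.6, 65.9 and 82.5 CPM to 257, 257 and 298 CPM. The rise of Snai2 was smaller than in osteogenesis (4.23) and chondrogenesis (4.21) by the test of the difference. The remaining one was the Wnt modulator Sfrp2, at 29.7, 5.16 and 6.29 CPM at 12 h and 1702, 1696 and 36.7 CPM at 72 h. Replicate 3 of 72 h was close to replicate 1 of 12 h, and replicates 1 and 2 of 72 h were far above all others. With the other scalings 6 of the 26 rose.

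Of 22 Wnt genes tested 5 rose (5.18% of all genes) and 0 fell, counts that were equal under every scaling and without the 2 samples that lay apart. Beside Frzb and Sfrp2 these were Apcdd1, a membrane inhibitor of Wnt signals, which rose from 0, 0.368 and 0.925 CPM to 14.2, 15.8 and 13.9 CPM. Its 72 h samples were alike, and the log2 fold change was 3.501 (SE 0.26). The receptor Fzd4 rose by 1.23, and the ligand Wnt4, with 0 reads in all 12 h samples, was at least 4.86-fold higher. For Frzb, Apcdd1 and Wnt4 the rise was larger than in both other lineages by the test of the difference.

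Among 17 genes of TGF-β and BMP signalling 3 rose and 2 fell, against 5.18% and 10.8% of all genes. Nog, which encodes the BMP antagonist noggin, stood at 1.61, 1.47 and 0.925 CPM at 12 h and 25.3, 23.4 and 3.17 CPM at 72 h. Replicates 1 and 2 of 72 h were high and replicate 3 was only just above 12 h. Gdf15, a stress-induced member of the family, rose from 0.731, 2.76 and 0.740 CPM to 9.79, 10.8 and 13.3 CPM, and the co-receptor Tgfbr3 by 1.24. The chordin-like BMP antagonist Chrdl2 was at least 11.1-fold lower, and the TGF-β-induced matrix gene Tgfbi fell by 1.75, which was not called without the 2 samples that lay apart. In the Notch list 3 of 9 genes rose (5.18% of all genes). Dtx4, a Deltex ligase, rose by 1.14, the receptor Notch1 by 1.36 and the ligand Dll1 by 1.997. Notch1 and Dll1 were not called without the samples that lay apart, where they gave 0.60 and 0.98.

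Of 14 genes of IGF and insulin signalling 2 rose and 1 fell (5.18% and 10.8% of all genes), and under the other scalings 5 to 7 rose. Igfbp5, which binds insulin-like growth factors, was measured at 767, 166 and 174 CPM at 12 h and 14952, 14956 and 380.5 CPM at 72 h. Replicate 3 of 72 h lay inside the range of 12 h, so the groups overlapped, although replicates 1 and 2 were far higher, and the log2 fold change was 3.96 (SE 0.74). The adaptor Grb10 rose by 1.14 with no overlap, and the PI3-kinase regulatory subunit gene Pik3r3 fell by 1.18, a call that was lost under part of the scalings.

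C4b, complement component 4, stood at 0.146, 0.737 and 0.185 CPM at 12 h and 117, 153 and 34.7 CPM at 72 h. All 72 h samples were far above 12 h, with replicate 3 the lowest, and C4b rose by 6.02 (SE 0.35) with an adjusted p of 8.2e-15. The classical pathway protease C1r rose from 260.1, 254 and 279.7 CPM to 1090, 952 and 638 CPM, whereas its partner C1s was not called (0.84, adjusted p 0.017). Serping1, the C1 inhibitor, rose from 1201, 796 and 795 CPM to 16028, 16800 and 10271 CPM, by 3.94. Of the 23 cytokine and chemokine genes tested, the list that holds C4b and C1r, 5 rose and 5 fell (5.18% and 10.8% of all genes). With the other scalings 6 or 7 rose and 2 or 3 fell. The chemokine Cxcl14 was at or under the floor at 12 h and in replicate 3 of 72 h, and at 75.9 and 78.0 CPM in replicates 1 and 2. The mean of Cxcl14 over the 3 samples of 72 h was 92.7 times the floor of 12 h, carried by replicates 1 and 2. Its log2 fold change was 4.31 (SE 0.74). Ccl9 was at least 3.58-fold higher and the NF-κB subunit gene Relb rose by 1.29. The neutrophil chemokine Cxcl1 fell from 4442, 5664 and 6003 CPM to 1790, 1656 and 1526 CPM. The interleukin-33 receptor Il1rl1 fell by 2.89, the TWEAK receptor Tnfrsf12a by 1.24 and Cxcl3 by 1.10, the last 2 not under every scaling. Ccl2 fell by 1.01, which rested on replicate 3 of 72 h. Its 72 h samples were at 1212, 1530 and 233 CPM and those of 12 h at 1630, 1457 and 1484 CPM. In the interferon and antigen presentation list, 1 of 20 genes, the guanylate-binding protein Gbp5, rose, with overlap, and under the other scalings 1 or 2 did.

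Matrix genes moved in both directions. Of 36 matrix glycoprotein and crosslinking genes tested, 6 rose and 10 fell in CPM, against 5.18% and 10.8% of all genes. With the other scalings 6 or 7 rose and 7 or 8 fell. Mgp, the matrix Gla protein that inhibits calcification, stood at 203, 477 and 524 CPM at 12 h and 5698, 4762 and 9420 CPM at 72 h. Replicate 3 was here the highest of 72 h, and Mgp rose by 4.10 (SE 0.23), less than in the other lineages (5.18 in osteogenesis and 5.55 in chondrogenesis). The spondin Spon1 rose from 202, 209 and 205 CPM to 2578, 2680 and 1912 CPM. Lumican (Lum), a small proteoglycan, was at 20.04, 45.1 and 44.4 CPM at 12 h and 1355, 1513 and 27.1 CPM at 72 h. Replicate 3 of 72 h again lay within the 12 h range while replicates 1 and 2 were high. The hyaluronan synthase Has2 rose by 1.60, the laminin chain Lama4 by 1.17 and the microfibril gene Mfap2 by 1.21, the latter with overlap. Lama5, a chain of basement membrane laminins, fell from 866, 572 and 561 CPM to 31.5, 28.0 and 30.3 CPM. It was lower at 72 h in every sample by a wide margin, and its fall of 4.40 was larger than in either other lineage by the test of the difference. Spon2 fell by 3.10, Lama1 by 1.72 and the fibrillin Fbn2 by 1.31, the last not called without the samples that lay apart. The lysyl oxidase-like gene Loxl3, the hyaluronan-degrading Cemip and nidogen (Nid1) fell by 1.44, 1.18 and 1.07 in CPM, calls that did not hold under every scaling. Smoc2, a matricellular protein gene, was at least 3.15-fold lower. Of 11 collagen genes tested, limma called 0 in CPM (1 was higher and 1 lower at an unadjusted p under 0.05), and edgeR called 1 higher and 1 lower.

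Of 27 matrix protease and inhibitor genes 5 rose and 3 fell, against 5.18% and 10.8% of all genes. The lysosomal protease cathepsin B (Ctsb) rose from 3106, 3069 and 3066 CPM to 8013, 8537 and 8393 CPM with hardly any spread in either group. The collagenase Mmp13 stood at 0.146, 2.03 and 2.22 CPM at 12 h and 53.6, 64.4 and 3.96 CPM at 72 h. The rise of 3.54 (SE 0.54) rested mostly on replicates 1 and 2 of 72 h. Mmp10, a stromelysin, rose by 1.70 and the aggrecanase Adamts4 by 1.16. The protease Adamts8 fell from 63.9, 20.3 and 13.5 CPM to 1.78, 3.55 and 0.475 CPM, cathepsin Z (Ctsz) by 1.65 and the cystatin Cst6 by 1.70, the last 2 not called without the samples that lay apart.

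Stromal identity genes changed unevenly. Thy1 (CD90), a surface marker of mesenchymal stem cells, stood at 6057, 5086 and 4666 CPM at 12 h and 387, 431 and 462 CPM at 72 h. Every 72 h sample lay far below every 12 h sample, and the log2 fold change of Thy1 was -3.62 (SE 0.11) with an adjusted p of 2.6e-21. Of the 9 stromal markers tested 1 rose, Lum, and 2 fell, Thy1 and S100a4, against 5.18% and 10.8% of all genes. S100a4, a calcium-binding protein of fibroblasts, fell from 6104, 4465 and 4500 CPM to 1772, 1638 and 598 CPM. Other markers were present at both times and were not called in CPM. Cd44 was at 368 to 405 CPM at 12 h and 258 to 337 CPM at 72 h, the integrin Itgb1 at 4362 to 6033 CPM and 3311 to 4133 CPM, and the receptor Lrp1 at 8942 to 10590 CPM and 16263 to 18776 CPM. Endoglin (Eng) was listed at 0 in all 6 samples. Of 29 contractile and serum response factor target genes 4 fell and 1 rose, against 10.8% and 5.18% of all genes. Under the other scalings 1 or 2 fell and 1 to 3 rose. Calponin (Cnn1) fell from 24.4, 13.3 and 13.9 CPM to 3.03, 1.24 and 2.22 CPM and was called under every scaling. The actin-linked genes Tes, Tpm4 and Actn4 fell by 1.51, 1.29 and 1.28 in CPM and were not all called under every scaling. The tropomyosin gene Tpm1 rose by 1.35. Of 10 chondrocyte genes 3 rose and 0 fell (5.18% and 10.8% of all genes). Sox9, the master regulator of cartilage, rose from 5.85, 5.89 and 4.995 CPM to 15.0, 15.4 and 19.01 CPM. Prg4 (lubricin) was at least 5.17-fold higher, and Angptl7 rose by 3.002 with overlap. Of 12 osteoblast genes 1 rose and 1 fell (5.18% and 10.8% of all genes). Mgp rose and the bone sialoprotein gene Ibsp fell by 1.11, the latter not under every scaling.

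Genes known to respond to glucocorticoid or to cyclic AMP differed from one another. Of 18 glucocorticoid-responsive genes 2 rose and 2 fell (5.18% and 10.8% of all genes), and under the other scalings 3 to 7 rose and 2 fell. Tsc22d3 (GILZ), a classic target of the glucocorticoid receptor, had 348 to 402 CPM at 12 h and 350 to 488 CPM at 72 h. With a mean of 27.8 CPM at 0 h, it was already far above undifferentiated cells at 12 h of adipogenesis. Its groups overlapped and the log2 fold change was 0.11, against 3.24 in osteogenesis and 2.24 in chondrogenesis, with differences of -3.13 (SE 0.22) and -2.13 (SE 0.22) and adjusted p-values of 7.3e-12 and 5.5e-09. Steap4, a metalloreductase of adipose tissue, rose from 2.34, 2.76 and 2.78 CPM to 17.8, 16.7 and 13.9 CPM. The phagocytic receptor gene Mertk rose by 1.05, which was not called without the samples that lay apart. Hsd11b1, which regenerates active glucocorticoid, fell from 527, 612 and 594 CPM to 202, 199.9 and 181 CPM. Its samples were tightly grouped, and its change was lower than in both other lineages. The connexin Gjb2 was at least 10.02-fold lower. Of 18 cAMP-responsive and immediate-early genes 2 rose and 0 fell (5.18% and 10.8% of all genes). Jun rose by 2.13 and the GTPase Gem by 2.71, and under the other scalings 3 or 4 genes of this list rose. Of 22 genes of the unfolded protein response 2 rose and 3 fell (5.18% and 10.8% of all genes). Chac1, which degrades glutathione, rose from 9.95, 4.05 and 4.44 CPM to 34.0, 29.97 and 30.4 CPM, and Ppp1r15a (GADD34), which restores translation, by 1.82. Pdia4, Mthfd2 and Dnajc3 fell by 1.09, 1.09 and 1.08 in CPM and were not called under the other 3 scalings.

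Of 131 TFs tested, 14 rose and 12 fell in CPM, against 5.18% and 10.8% of all genes. With the other scalings 18 to 23 rose and 6 to 9 fell. The list had been chosen by the study on these samples, so its counts are not independent evidence. Osr1, a zinc finger TF, rose from 0.731, 0.184 and 0.185 CPM to 6.94, 4.79 and 4.75 CPM. Bhlhe40, a repressor of the clock, rose from 22.8, 15.1 and 14.4 CPM to 52.3, 66.1 and 128 CPM, with replicate 3 the highest. For both the rise was larger than in either other lineage by the test of the difference. Its relative Bhlhe41 rose by 1.70, Klf10 by 1.48, Zfp503 by 1.10 (not called without the samples that lay apart) and the homeobox gene Hlx by 1.001. Tfcp2l1 was at least 4.97-fold higher. Jun, Snai2, Nr1d1, Sox9, Klf5 and Relb of the list also rose. The centromere genes Cenpa and Cenpt and the chromatin gene Hmgb2, also on the mitosis list, fell, as did Rab24 (at least 64.9-fold lower), Pax8 (at least 6.29-fold lower), Zfhx2, Terf1, Phb, Nme2, Zfp367, Hoxd13 and AABR07015743.1. The last 2, Nme2, Phb, Terf1 and Zfhx2 were not called under every scaling.

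The count for mitochondrial genes depended on the scaling. Of 40 mitochondrial respiration genes 14 fell and 1 rose in CPM, with a median of -0.88, but only 2 or 3 fell with the other scalings. In CPM 10.8% of all genes fell and 5.18% rose, the shares to set beside this and the list counts that follow. The Krebs cycle enzymes fumarase (Fh) and malate dehydrogenase (Mdh2) fell under all of them, by 1.59 and 1.56 in CPM. Subunits of the respiratory chain such as Uqcrc1, Cox7b and Ndufc2 gave -1.24, -1.22 and -1.08 in CPM and were not called under every scaling. Idh2, the mitochondrial isocitrate dehydrogenase, rose from 8.19, 6.26 and 7.22 CPM to 28.0, 22.3 and 36.3 CPM. Of 19 glycolysis genes 2 rose and 2 fell. The monocarboxylate transporter Slc16a1 rose from 756, 894 and 920.3 CPM to 2856, 2412 and 3223 CPM with narrow spread, and its rise was larger than in both other lineages. Pfkfb3, which drives glycolysis through fructose 2,6-bisphosphate, rose by 2.03. Phosphoglycerate kinase (Pgk1) fell by 1.87 and glucose-6-phosphate isomerase (Gpi) fell by 1.51 in CPM, and both were called under every scaling. Of 29 ribosomal genes 1 fell, Rpl38, not under every scaling. Of 20 genes of fatty acid oxidation 1 rose and 1 fell, the latter Acads, by 1.03 and not under every scaling. Of 14 cell cycle inhibitor genes 1 rose and 1 fell in CPM, and under the other scalings 2 to 4 rose and 0 fell. Gas6, a growth arrest-specific ligand, rose by 1.95, and Ccng1, a p53 target, fell by 1.18 in CPM.

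**Figure D3:**
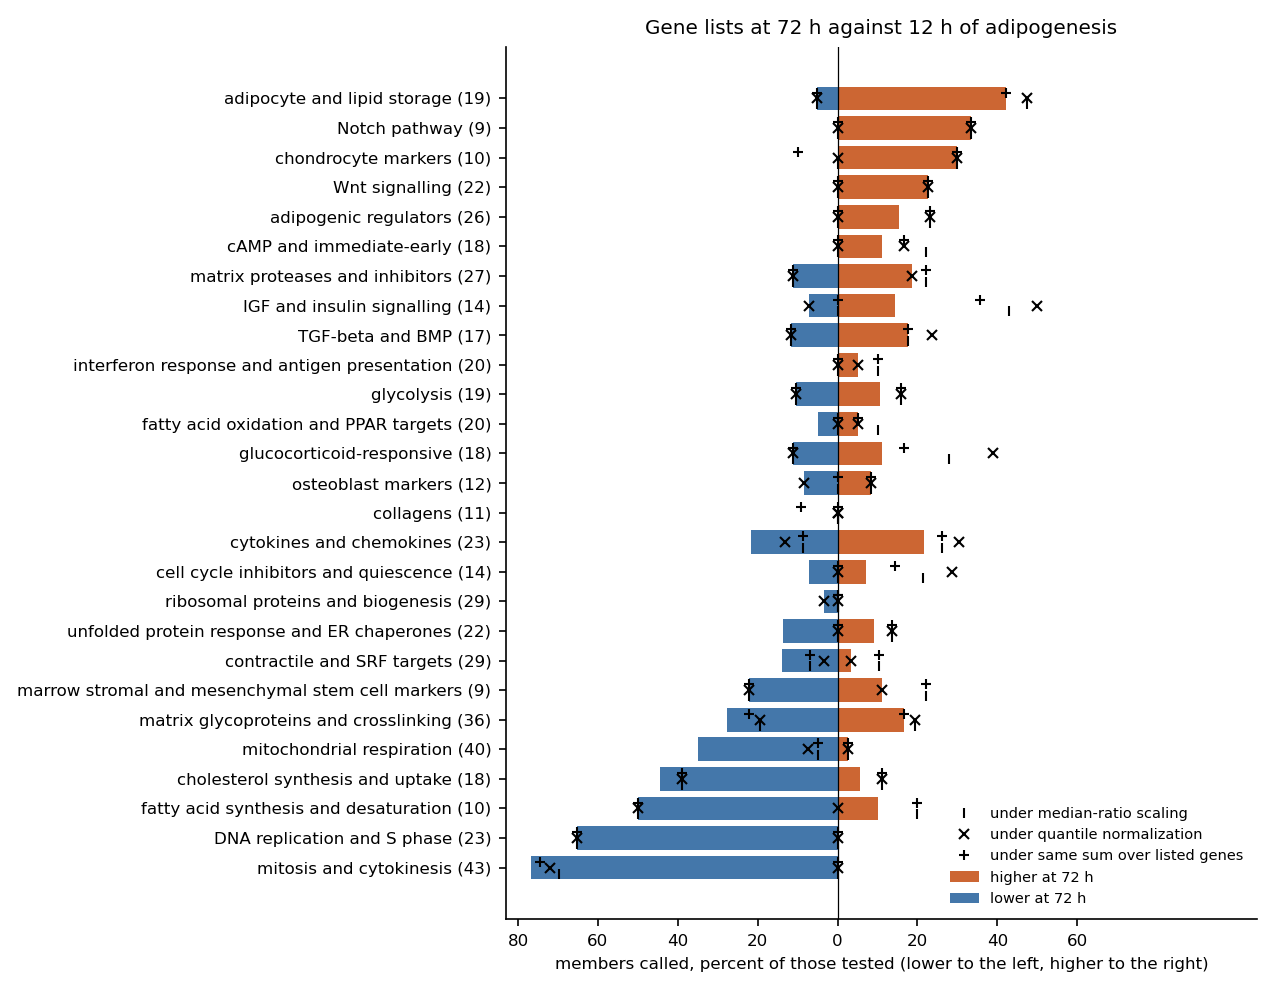
Share of the tested members of each gene list (number tested in brackets) that were called higher (right) or lower (left) at 72 h against 12 h. Bars are the CPM values and black marks the 3 other scalings. Lower members number 33 of 43 (30 to 32 in the marks) for mitosis and 15 of 23 for DNA replication, whereas those of mitochondrial respiration number 14 of 40 in CPM and 2 or 3 in the marks.

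The same interval in the other lineages showed what was shared. Between 12 and 72 h of osteogenesis 1012 genes changed (23.2%) and between these times of chondrogenesis 576 (13.2%), in samples other than those of adipogenesis. Of the 226 genes that rose in adipogenesis, 112 also rose in osteogenesis (49.6% of the former and 26.5% of the latter) and 66 in chondrogenesis (29.2% and 18.97%). Of all tested genes 9.67% rose in osteogenesis and 7.98% in chondrogenesis. Of the 472 that fell, 302 also fell in osteogenesis (64.0% and 51.2%) and 79 in chondrogenesis (16.7% and 34.6%), against 13.5% and 5.23% of all tested genes. The call was in the other direction for 3 of the 226 and 6 of the 472 in osteogenesis and for 5 and 29 in chondrogenesis. The change itself differed from that of osteogenesis for 621 genes (14.2%), 241 of them higher and 380 lower in adipogenesis. After median-ratio scaling the split was 322 and 247, after quantile normalization 285 and 282, and with equal sums of listed reads 266 and 328. It differed from that of chondrogenesis for 841 genes (19.3%), 273 higher (6.26%) and 568 lower. This split was 402 and 465 after median-ratio scaling, 387 and 436 after quantile normalization and 447 and 411 with equal sums of listed reads. With edgeR the splits were 196 and 278 against osteogenesis and 237 and 368 against chondrogenesis. In both tests 74 genes were higher and 102 lower in adipogenesis.

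Among these, the adipogenic change exceeded that of both lineages most for C4b, Vat1l, Cxcl14, Car4, Gldn and Mmp13. Car4, a membrane-bound carbonic anhydrase, was at 1.76, 3.31 and 4.07 CPM at 12 h and 66.1, 70.6 and 1.74 CPM at 72 h. Replicate 3 of 72 h was as low as 12 h while replicates 1 and 2 were high. Car4 changed by 2.59 in adipogenesis, -2.66 in osteogenesis and -1.24 in chondrogenesis. For C4b the difference was 3.54 (SE 0.49) from osteogenesis and 5.91 (SE 0.49) from chondrogenesis, with adjusted p-values of 2.7e-06 and 6.5e-11. Gldn, which encodes gliomedin, was at 7.83, 7.63 and 0.475 CPM at 72 h and was not called in adipogenesis (0.30, adjusted p 0.56). Without replicate 3 of 72 h it was called higher (1.16), and its log2 fold changes in the other media were -2.70 and -4.51. The mean of Gldn fell from 136 to 20.2 CPM in osteogenesis and from 176 to 6.97 CPM in chondrogenesis. In adipogenesis it was 3.03 CPM at 12 h and 5.31 CPM at 72 h, so the difference came mostly from the other media.

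On the lower side stood Sema3d, Thy1, Inhbb, Cd109 and Ccnd2. Thy1 changed by -0.55 in osteogenesis and -0.87 in chondrogenesis, so that the adipogenic change differed by -3.07 (SE 0.16) and -2.75 (SE 0.16), with adjusted p-values of 1.2e-14 and 1.8e-14. It had stood at 8052 CPM (mean, n = 3) at 0 h and 6416 CPM at 3 h of adipogenesis. The semaphorin gene Sema3d was at 712, 920.0 and 896 CPM at 12 h and 283, 243 and 18.2 CPM at 72 h. All 72 h samples were below 12 h and replicate 3 was far the lowest. The change was -2.93 (SE 0.49) over all samples and -1.67 without this one, whereas it was 1.59 in osteogenesis and 0.44 in chondrogenesis. Cd109, a TGF-β co-receptor, fell by 2.84 with 44.4 to 110 CPM at 12 h and 3.80 to 14.5 CPM at 72 h. The inhibin subunit gene Inhbb changed by -0.69 in adipogenesis and by 2.01 and 2.002 in the other media. Cyclin D2 (Ccnd2) was not called in adipogenesis (0.65) and rose by 3.09 and 4.41 in the others. Its adipogenic value was -0.006 without replicate 1 of 12 h and 1.22, called higher, without replicate 3 of 72 h.

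**Figure D4:**
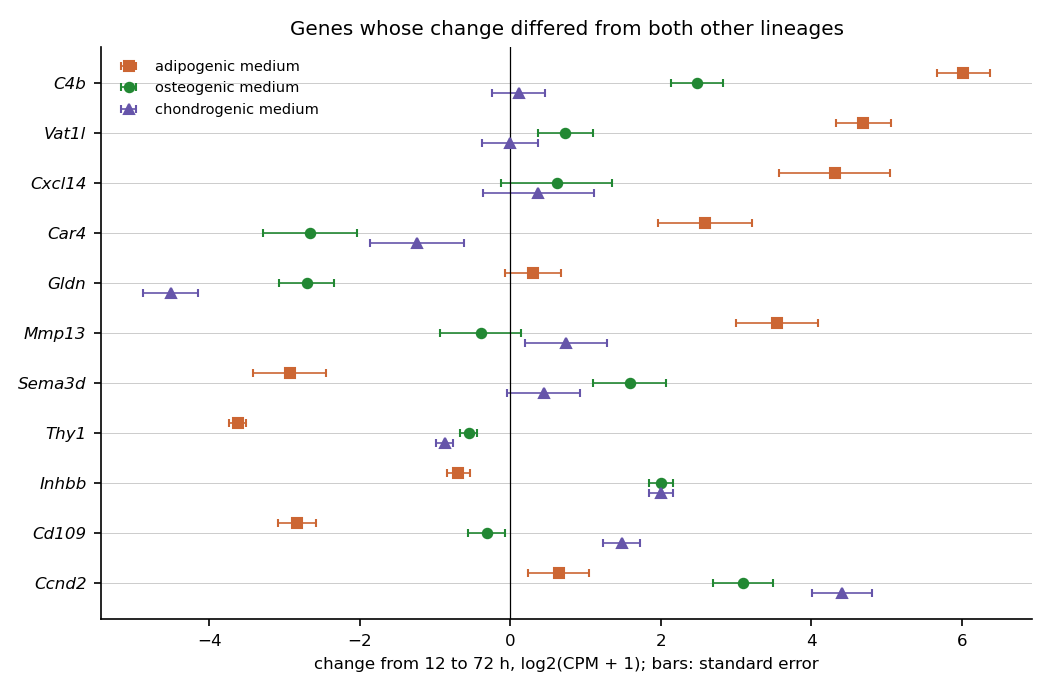
Change from 12 to 72 h on the log2(CPM + 1) scale in the 3 differentiation media for 11 of the genes that differed most from both other lineages. Points are limma estimates over 3 samples against 3. Bars are standard errors from a spread taken for each gene over all 10 groups, so they are equal in the 3 media. Thy1 lies at -3.62 in adipogenesis and between -0.87 and -0.55 in the others, while Gldn and Ccnd2 lie at 0.30 and 0.65 in adipogenesis.

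The samples that lay apart did so in particular genes. In replicate 3 of 72 h, 71 genes were more than 2 log2 units below the mean of the other samples of its group and 3 were above. The genes farthest below were Cxcl14, Lum, Sfrp2, Igfbp5, Cxcl6 and Hpgd. Cxcl6 was at 49.3, 94.7 and 101 CPM at 12 h and 275, 326 and 8.08 CPM at 72 h, and its log2 fold change was 0.25 over all samples and 1.61 without the 2 samples. Hpgd, which degrades prostaglandins, had 63.6, 65.8 and 1.58 CPM at 72 h. The farthest above were Mpzl2, Maob, Surf4, Snx7, Pfkfb3 and AABR07058884.1, among which Maob, a monoamine oxidase, had 32.0, 30.5 and 171 CPM at 72 h. In replicate 1 of 12 h, 16 genes were more than 2 log2 units above and 8 below. Among the highest were Kprp, C5ar2, Cldn1, Clca4l and Hspb7, and the lowest Hnrnpa2b1, NEWGENE_620180, Dll1, Sez6l, Peli2 and Col4a2. Hspb7, a small heat shock protein gene, stood at 4972, 818 and 814 CPM at 12 h and 797, 862 and 396 CPM at 72 h. Its call of -1.20 rested on replicate 1 of 12 h, since the value without the 2 samples was 0.022. Without these 2 samples Frzb rose by 7.08, Sfrp2 by 7.99, Igfbp5 by 6.45 and Lum by 4.97.

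**Figure D5:**
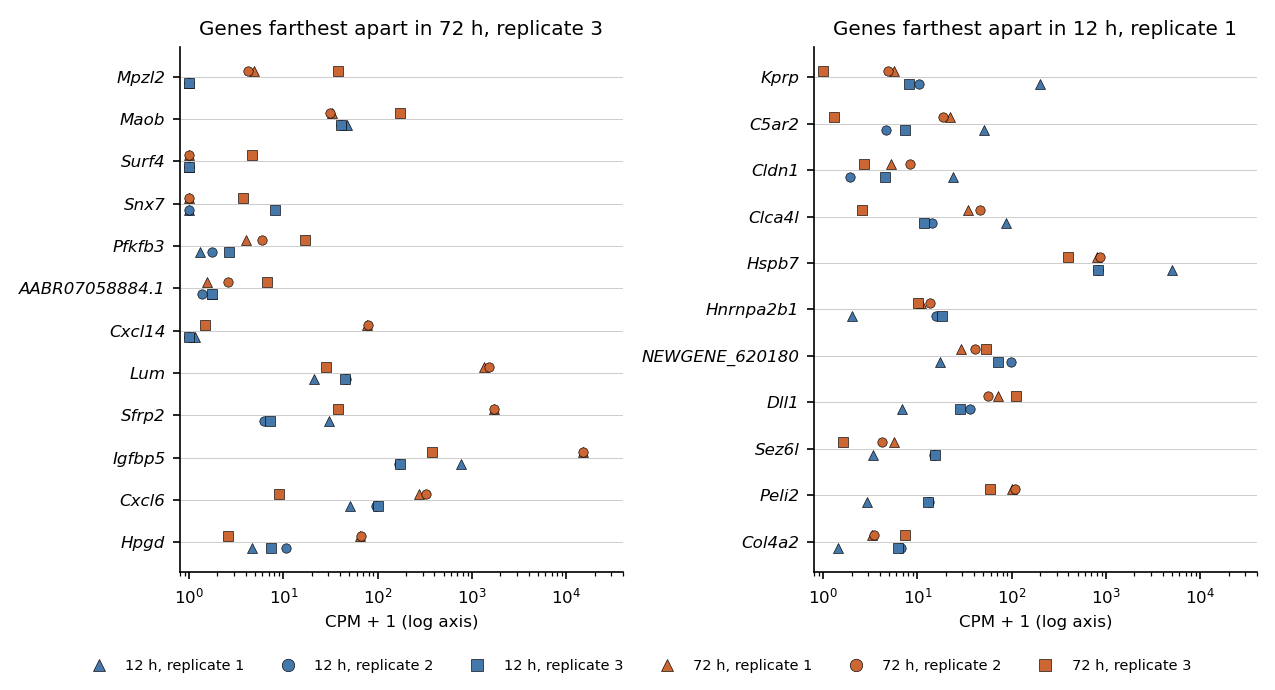
Values of 12 genes in which 72 h replicate 3 (left) and 11 in which 12 h replicate 1 (right) lay farthest from the other samples of their group. The x axis is CPM + 1 on a log scale, with colours for time and symbols for replicates. Replicate 3 of 72 h lies near the 12 h samples for Cxcl14, Lum, Sfrp2 and Igfbp5, and replicate 1 of 12 h is far above the rest for Kprp and Hspb7.

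Markers of other cells that marrow cultures may hold were low. Over the macrophage and monocyte markers the summed level was 1.66 to 4.24 CPM at 12 h and 2.69 to 5.16 CPM at 72 h, with Csf1r at most 0.178 CPM. Granulocyte markers summed to at most 2.13 CPM, lymphocyte markers to 3.22 CPM, erythroid markers to 0.950 CPM, megakaryocyte markers to 1.60 CPM and endothelial markers to 4.99 CPM in any of the 6 samples, and Cd34 was listed at 0. Smooth muscle and pericyte markers summed to 25.0 to 58.8 CPM at 12 h and 7.60 to 9.79 CPM at 72 h. Epithelial markers summed to 12.3 to 226 CPM at 12 h, the highest in replicate 1 with 197 CPM of Kprp, and to 3.96 to 13.1 CPM at 72 h. Of 6 tested smooth muscle markers Cnn1 and the proteoglycan Cspg4 fell, and of 4 epithelial markers Kprp fell (10.8% of all genes). Cspg4 and Kprp were not called without the 2 samples that lay apart, where Kprp gave -0.81. Of 3 macrophage markers Coro1a fell, at 1.30 to 3.95 CPM at 12 h. The lysozyme gene Lyz2 rose (5.18% of all genes) to at most 2.06 CPM, which was not called without these 2 samples. The part of these markers in the other results was not tested.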

How the data were processed

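RNA was sequenced from 30 samples of rat BMSCs. The study's methods give an mRNA library kit, whereas the sample labels describe ribosomal RNA removal and digestion of the second cDNA strand. The submitters' processing notes name Trimmomatic, HISAT2 and StringTie, and their settings and the genome build are not given in the sources used here. The authors deposited 10803 values per sample under the name FPKM, but in every sample they were whole multiples of 1 step (tolerance 0.01 of a read), so they are CPM as deposited, and reads and totals were recovered from the step. Whether counting used strand is not given.

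Values that shared a name were summed (729 of 9999 names). A gene entered the test when 3 or more of the 30 samples reached 1 CPM (4363 genes). The test was limma 3.58.1 (R 4.3.3) on log2(CPM + 1), in 1 model of 10 groups with no covariates (lmFit, contrasts.fit, eBayes with trend), and p-values were adjusted over all tested genes by the Benjamini-Hochberg method. The comparison was 72 h against 12 h of adipogenesis, and the same change was tested against that of osteogenesis and of chondrogenesis. Fold changes on this scale understate the change of low genes, and fold bounds are set against 3 reads in the sample of the group with the highest floor. Named were the 12 largest rises and falls among called genes whose groups do not overlap, the called members and some defining members of the gene lists, the 6 genes on each side with the largest difference from both lineages, and the 6 genes on each side farthest apart in 72 h replicate 3 and 12 h replicate 1. Some genes that these rules name are not reported here and enter only fits and counts. Members and lists were chosen with earlier results of these data known.

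Alternatives were a pseudocount of 0.1, no filter, 3 scalings, the 6 samples alone, a replicate block, the recovered reads tested by quasi-likelihood in edgeR 4.0.16, shared names kept apart, each replicate left out, both distant samples left out, and, chosen after seeing the data, the latter with median-ratio scaling. The steps were tested on simulated data. Promoter windows are from RefSeq (GRCr8). Tables and figures used Python 3.11.15, numpy 2.4.6, pandas 2.3.3 and matplotlib 3.10.9.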

Additional observations from a re-analysis of the deposited data

Results flagged for a closer look

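Listed here are results in which the change from 12 to 72 h in adipogenesis differed from the change in another lineage by limma's test of the difference itself, and no explanation was tested. This held for 621 of 4363 genes against osteogenesis (14.2%) and for 841 against chondrogenesis (19.3%). Of the 43 mitosis genes tested 34 changed less upward or further downward than in chondrogenesis. So did 18 of the 23 DNA replication genes and 8 of the 18 cholesterol genes, against 13.0% of all genes. The adipogenic change was higher for C4b, by 3.54 (log2) than in osteogenesis and 5.91 than in chondrogenesis, for Vat1l by 3.96 and 4.69, for Cxcl14 by 3.69 and 3.94, for Car4 by 5.25 and 3.83, for Gldn by 3.00 and 4.81, and for Mmp13 by 3.94 and 2.80. Cxcl14, Car4, Gldn and Mmp13 were higher in replicates 1 and 2 of 72 h than at 12 h, with replicate 3 at, near or below the level of 12 h. For Gldn the difference came mostly from its fall in the other media (-2.70 and -4.51). The difference was negative for Sema3d (-4.52 from osteogenesis and -3.37 from chondrogenesis), Thy1 (-3.07 and -2.75), Inhbb (-2.69 and -2.69), Cd109 (-2.52 and -4.32) and Ccnd2 (-2.45 and -3.76). These differences were called in the same direction without replicate 3 of 72 h, without replicate 1 of 12 h and without both. Sema3d gave -3.26 and -2.12 without replicate 3 of 72 h, where Cxcl14 gave 5.60 and 5.85, and Cd109 gave -1.68 and -3.47 without both samples.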

How the results depend on the processing

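The 698 calls between 72 and 12 h became 528 to 919 under the alternatives, 642 to 800 with a replicate left out (32.4% higher became 29.5 to 40.2%), and 657 and 668 without both distant samples in CPM and after median-ratio scaling. The share that rose, 32.4% in CPM, was 63.0% after median-ratio scaling, 51.3% after quantile normalization, 57.7% with the same sum over listed genes, 59.8% with edgeR, 43.7% without both distant samples and 65.3% without both after median-ratio scaling. It was 25.9% when only the 6 samples were fitted, where 137 genes rose and 391 fell. The calls against osteogenesis (621) ranged from 474 to 682 and those against chondrogenesis (841) from 605 to 874. Fatty acid synthesis genes that fell numbered 3 in place of 5 without both samples after median-ratio scaling. Of 174 genes, those named only from the mitosis, TF or marker lists left out, 160 were called. Of these 30 lost the call after median-ratio scaling, 27 after quantile normalization, 37 when only the 6 samples were fitted and 30 without both samples. Hspb7 (-1.20, and -1.64 to -0.33 with a replicate left out) changed sign without both samples (0.022, and 0.37 after median-ratio scaling), and Ccl2 did so (0.24 without both after median-ratio scaling). Samples of the same replicate number at 12 and 72 h deviated together for numbers 1 and 3 (r = 0.16 and 0.14) and not for 2 (r = -0.05). Samples 1 and 3 correlated best with their own number. The deviations are from group means that include the distant samples, so they cannot decide whether the numbers are a pairing. No pairing was used in the main fit. With a replicate block 699 genes were called. Depth limits values near 3 reads: 52 genes that rose were at or under the floor in all 12 h samples, and 68 that fell were so in all 72 h samples.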

Other observations

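Other families were picked after their values were seen and are given as values only. Of 23 histone genes tested, 14 fell and 0 rose between 12 and 72 h of adipogenesis, with a median log2 fold change of -1.60, and 12 had been higher at 12 h than at 0 h. Of all tested genes 10.8% fell and 8.14% had been higher at 12 h than at 0 h. The linker histone gene Hist1h1a stood at 225, 224 and 228 CPM at 12 h and 3.38, 8.87 and 4.75 CPM at 72 h, and Hist1h2ao, an H2A gene, went from 1143, 733 and 678 CPM to 86.5, 64.6 and 93.5 CPM. The replacement histone gene H3f3b, whose transcript is made outside S phase as well, was at 1475, 1409 and 1446 CPM at 12 h and 1942, 2050 and 2162 CPM at 72 h and was not called in CPM, although its groups did not overlap. Histone genes are close copies of each other, so reads may have been split between them. In osteogenesis 18 of the 23 fell (13.5% of all genes) and in chondrogenesis 0 fell and 7 rose (7.98%). Of 8 tubulin genes 6 fell (10.8% of all genes), among them Tubb6, from 1149, 586 and 533 CPM to 122.7, 113 and 70.6 CPM.

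A ligand and a receptor outside the lists rose together. Pleiotrophin (Ptn), a heparin-binding growth factor, was at 344, 163 and 175 CPM at 12 h and 3037, 3041 and 1559 CPM at 72 h, and Ptprz1, which encodes its receptor phosphatase, was at 3.51, 15.1 and 12.8 CPM at 12 h and 109, 104 and 79.0 CPM at 72 h. The groups overlapped for neither gene. Gpnmb, a glycoprotein of lysosomes and macrophages, rose from 389.7, 403 and 402 CPM to 2753, 2739 and 2115 CPM, and Zfp36, an RNA-decay factor, from 382, 197 and 212 CPM to 1429, 1488 and 1991 CPM. Cp (ceruloplasmin) and Fth1 (ferritin heavy chain) rose by 2.997 and 1.64. Among abundant genes Lgals1 (galectin 1) fell from 3940, 2713 and 2843 CPM to 674, 619.6 and 236 CPM and Anxa2 (annexin A2) from 2967, 1884 and 1815 CPM to 309, 388 and 135 CPM.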
